A study of Mus musculus with 4 samples.

Results

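The proteasome subunit and activator genes were examined in the cerebral cortex of P4htm-/- (KO) and WT mice after a stroke. The members were the genes with a probe set naming a single gene whose symbol began with Psma, Psmb, Psmc, Psmd or Psme and a digit, and the probe set with the highest mean was used for each gene. This gave 44 of the 18194 genes measured, from 91 of the 45101 probe sets of an Affymetrix mouse genome array, and 42 of the 44 were above background. Background was a log2 value of 4.80, the 95th percentile of 80 probe sets of olfactory, vomeronasal and bitter taste receptors. Psme2, a subunit of the interferon-induced activator, shares its probe set with Psme2b, so no value is given for either symbol.

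P4H-TM is a transmembrane prolyl 4-hydroxylase of the endoplasmic reticulum that takes part in the control of the hypoxia-inducible factors. The study asked how its loss changes gene expression after permanent occlusion of the left middle cerebral artery (pMCAO), which cuts off the blood supply of part of the cortex. The 4 groups were the ipsilateral, injured cortex of KO mice, the contralateral cortex of KO mice, the ipsilateral cortex of WT mice and the contralateral cortex of WT mice, all 24 h after the occlusion in mice of 3 months. All 4 carried the C57BL/6J strain label, and the KO line, which had been backcrossed to C57BL/6, is a knockout of the whole animal and not of brain alone. Both sides of a genotype came from the same operated mice, per the study's methods, so no group is unoperated. Each group was 1 array with the RNA of whole cortex from 4 mice pooled, so there is no spread between mice, no test and no p-value below. In such bulk RNA, fewer cells of a type and less RNA per cell cannot be told apart.

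The median log2 value of the 4 arrays lay between 5.53 and 5.55, and between 58.9% and 59.5% of the probe sets were above background. The probe set of P4htm read 8.23 and 8.27 in KO ipsilateral and contralateral cortex, against 10.02 and 10.03 in the WT counterparts, so the probe set was lower on both KO arrays and still above background there, and whether it lies in the deleted part of the gene is not known here. All 12 neuronal markers, all 10 astrocyte markers and all 9 measured oligodendrocyte markers were above background on every array. The choroid plexus markers, which belong to a tissue next to the cortex, differed by side: the transthyretin gene Ttr read 13.62 in KO ipsilateral and 9.03 in KO contralateral cortex, and 14.06 in WT ipsilateral and 8.71 in WT contralateral cortex. Ttr was thus far higher in the ipsilateral pool of both genotypes, and the part of choroid plexus RNA in the values below was not tested.

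The proteasome is the protease that degrades proteins tagged with ubiquitin. Its 20S core is a stack of rings, the outer ones built of alpha subunits (Psma genes), which gate the entry, and the inner ones of beta subunits (Psmb genes), of which Psmb5, Psmb6 and Psmb7 encode the catalytic sites. The 19S regulatory particle caps the core, with ATPases (Psmc genes) that unfold the substrate and non-ATPase subunits (Psmd genes) that bind and remove ubiquitin; the part that holds the ATPases is called the base and the outer part the lid. Interferons induce Psmb8, Psmb9 and Psmb10, which replace the catalytic subunits in the immunoproteasome, and Psme1 and Psme2, which form the PA28 activator. These variants favour peptides for display on MHC class I, and in brain they are known mainly from microglia and other immune cells.

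The promoters of 5 members are shown: Psmb8, the member with the largest difference between sides, and Psmb5, the gene it replaces, then Psmb9 and Psmb6, which form another such pair, and Psma2, an alpha ring gene with 1 of the largest differences between sides in WT. RefSeq (GRCm38.p6) entries were found for 37 of the 44 members. Each line gives the 250 bases before the annotated start, 5′ to 3′ on the strand of the gene, and capitals mark each match, on either strand, to 5 short motifs: GAAANNGAA (interferon regulatory factors), TTCNNNGAA (STAT factors), TGACNNNGC (antioxidant response), CCAAT (the CCAAT box) and GGGCGG (the GC box).
Psmb8 (chr17:34197945-34198194, plus strand): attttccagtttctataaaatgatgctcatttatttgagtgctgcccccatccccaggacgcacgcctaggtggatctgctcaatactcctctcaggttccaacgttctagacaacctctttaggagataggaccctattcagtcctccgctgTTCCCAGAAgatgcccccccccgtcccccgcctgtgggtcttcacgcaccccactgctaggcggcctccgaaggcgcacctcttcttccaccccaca
Psmb5 (chr14:54617996-54618245, minus strand): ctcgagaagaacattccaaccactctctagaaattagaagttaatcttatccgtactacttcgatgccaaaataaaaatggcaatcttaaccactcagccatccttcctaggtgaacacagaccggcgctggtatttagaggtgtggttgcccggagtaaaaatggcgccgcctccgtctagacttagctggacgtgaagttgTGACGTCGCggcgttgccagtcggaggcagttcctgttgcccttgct
Psmb9 (chr17:34187331-34187580, minus strand): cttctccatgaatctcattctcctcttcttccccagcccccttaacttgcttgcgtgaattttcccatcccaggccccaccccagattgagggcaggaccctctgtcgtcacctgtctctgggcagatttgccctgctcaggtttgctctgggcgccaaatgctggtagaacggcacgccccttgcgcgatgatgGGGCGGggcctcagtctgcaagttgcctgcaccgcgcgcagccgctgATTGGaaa
Psmb6 (chr11:70525107-70525356, plus strand): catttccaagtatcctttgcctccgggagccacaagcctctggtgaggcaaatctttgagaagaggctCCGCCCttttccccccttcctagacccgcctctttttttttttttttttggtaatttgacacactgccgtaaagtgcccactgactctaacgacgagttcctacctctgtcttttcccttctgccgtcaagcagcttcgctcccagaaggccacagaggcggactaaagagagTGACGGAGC
Psma2 (chr13:14612992-14613241, plus strand): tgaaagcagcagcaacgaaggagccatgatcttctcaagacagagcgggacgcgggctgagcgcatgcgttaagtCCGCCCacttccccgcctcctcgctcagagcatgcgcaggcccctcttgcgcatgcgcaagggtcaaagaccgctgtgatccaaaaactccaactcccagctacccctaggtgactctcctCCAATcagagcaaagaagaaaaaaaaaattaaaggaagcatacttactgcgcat
Psmb8 and Psmb9, which lie near each other in the MHC region of chromosome 17, differed in their matches. The STAT motif matched the Psmb8 promoter, 97 bases before the start, and no other immunoproteasome or core promoter, while 7.02% of 32851 mouse promoters held it. The interferon regulatory factor motif matched 0 of the 6 immunoproteasome promoter entries, Psme2 included, 1 of the 12 core promoters (Psmb3) and 7.13% of all promoters. The antioxidant motif matched 2 of the 12 core promoters (Psmb5 and Psmb6), 2 of the 15 promoters of 19S ATPase and non-ATPase genes (Psmd12 and Psmc6), the promoter of the chaperone gene Psmd9, and 10.2% of all promoters. The CCAAT box matched 6 of 12 core, 1 of 6 immunoproteasome and 4 of 15 of these 19S promoters, against 33.8% of all. The GC box matched 5 of 12 core, 4 of 6 immunoproteasome and 9 of 15 of these 19S promoters, against 32.7% of all. These counts are of promoter entries, and Psma6, Psmc2 and Psme2 have 2 entries each. The immunoproteasome genes with a GC box were Psme1, Psme2 and Psmb9. The windows of the Psme2 entries overlap, so 1 site, 147 and 67 bases before the 2 starts, was counted in both. These matches describe letters in a short window and are not measured binding sites.

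The data held 2 patterns. Psmb8 was higher in the ipsilateral than in the contralateral cortex of both genotypes, by close to 2-fold. The constitutive core genes, in contrast, stood higher in WT ipsilateral cortex than on any other array. All 14 core genes of the alpha and beta rings had their highest value there, as did 29.6% of all genes. The KO ipsilateral cortex did not show this elevation, and its core values lay with those of the contralateral cortex. Differences are called here by size, at 1.5-fold (0.585 on the log2 scale) and at 1.2-fold (0.263), where at least 1 of the arrays compared was above background.

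**Figure D1:**
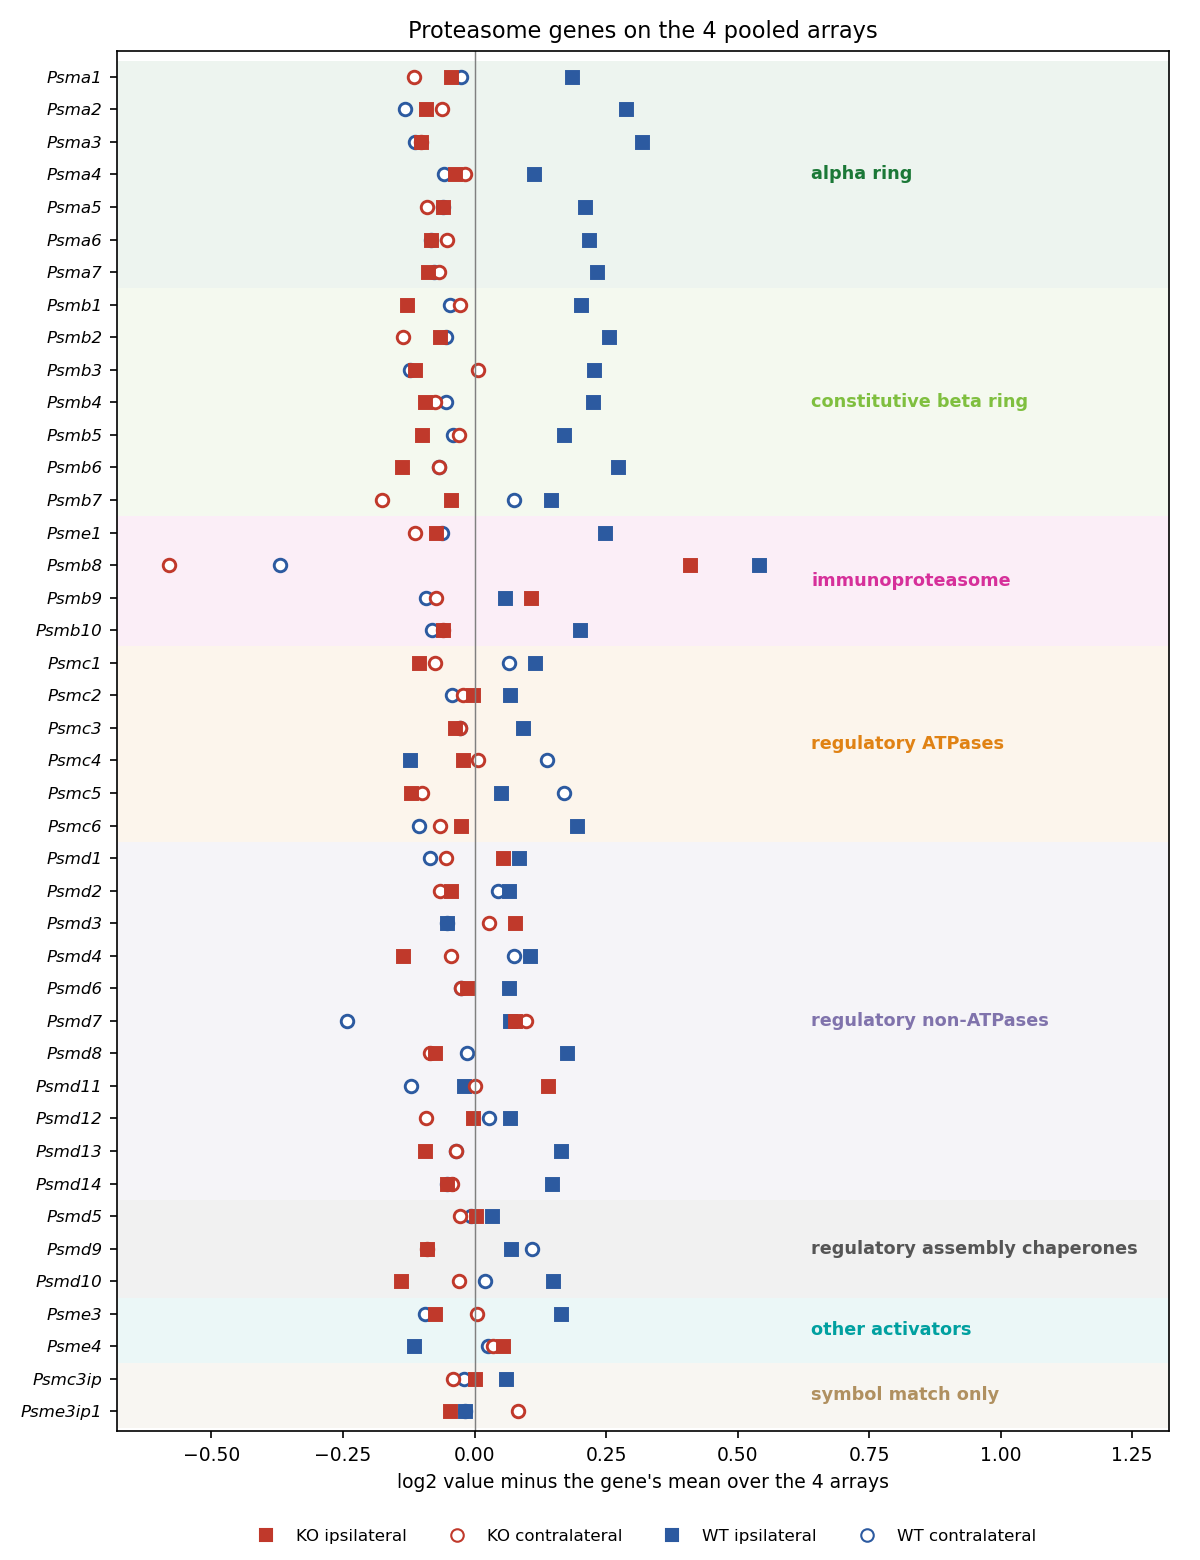
Log2 value of each of the 42 proteasome genes above background on each array, minus the gene's own mean over the 4 arrays (x axis), with genes grouped by role (y axis). Squares are ipsilateral and circles contralateral, red is KO and blue is WT, and coinciding symbols hide each other. The WT ipsilateral squares of the alpha and beta rings lie to the right of the other symbols, while Psmb8 has both ipsilateral squares on the right.

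Psmb8, the induced subunit that replaces Psmb5, read 7.51 in KO ipsilateral and 6.52 in KO contralateral cortex. In WT mice it read 7.64 in the ipsilateral and 6.73 in the contralateral cortex. Both ipsilateral pools were thus well above both contralateral pools, by 0.99 in KO (1.99-fold) and 0.91 in WT (1.88-fold). Psmb8 was the only member past 1.5-fold in either genotype, against 1.7% of 13264 genes in KO and 2.85% of 13291 genes in WT. It ranked as the 76th highest difference of all genes in KO and the 134th in WT. Between genotypes Psmb8 differed little, by -0.13 in ipsilateral and -0.21 in contralateral cortex, KO minus WT. Its other probe set was not above background, and with the mean of both the difference between sides was 0.575 in KO and 0.685 in WT.

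The other immunoproteasome genes did not reach the differences of Psmb8. Psmb9, the induced counterpart of Psmb6, read 6.09 and 5.91 in KO ipsilateral and contralateral cortex, and 6.04 and 5.89 in the WT counterparts. It was slightly higher on the injured side of both genotypes, by 0.18 in KO and 0.15 in WT, which is under both size rules and about the scatter of receptor probe sets (SD 0.179 in KO and 0.207 in WT). Psmb10, the induced counterpart of Psmb7, read 9.53 on both sides of the KO cortex, and 9.79 and 9.51 in WT ipsilateral and contralateral cortex. Psme1, the alpha subunit of PA28, read 9.27 and 9.23 in KO ipsilateral and contralateral cortex, and 9.59 and 9.28 in the WT counterparts. For both genes the WT ipsilateral pool was the highest and the other 3 pools lay within 0.05, which is the pattern of the constitutive core and not that of Psmb8.

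**Figure D2:**
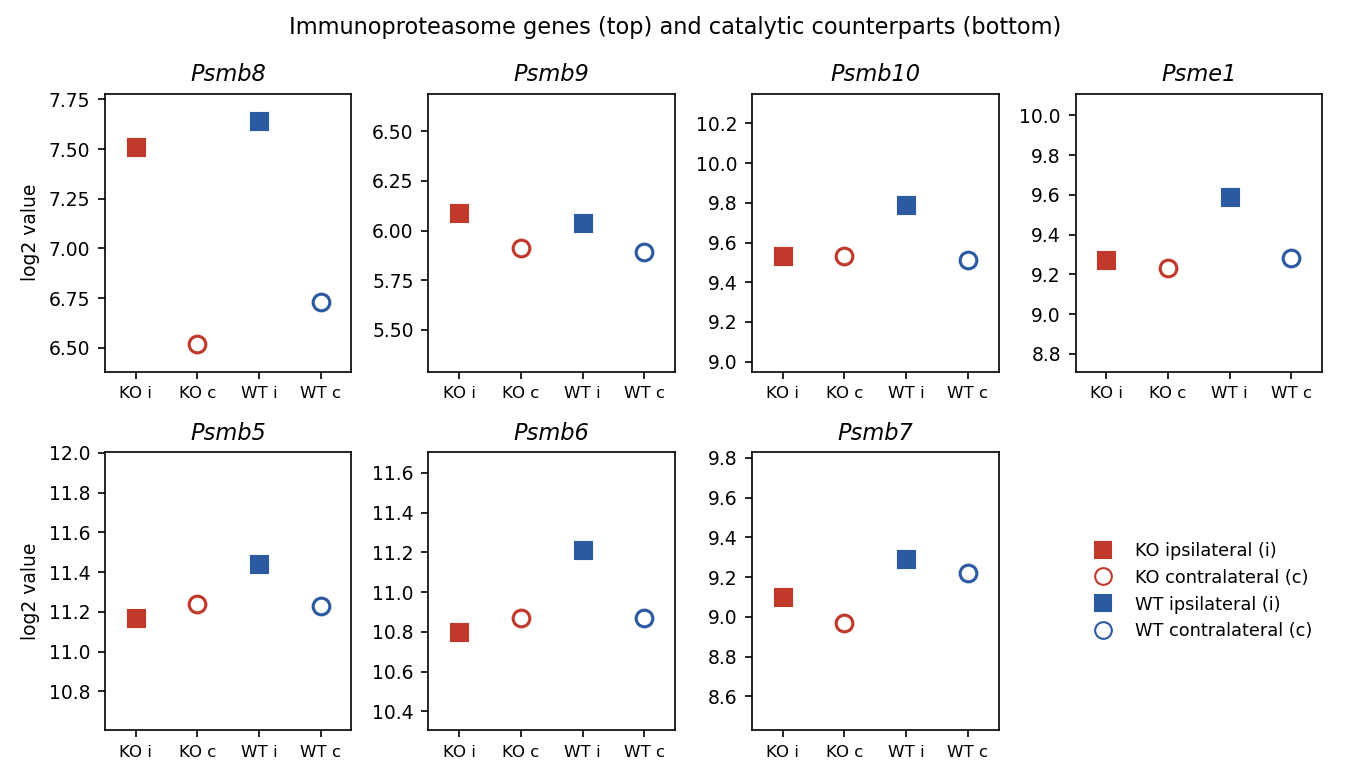
Log2 value (y axis) of the 4 immunoproteasome genes with a probe set of their own (top) and of the 3 catalytic core genes that Psmb8, Psmb9 and Psmb10 replace (bottom), on each array (x axis). Every panel spans the same number of log2 units at its own level, and levels of different probe sets cannot be compared. Psmb8 is high on both ipsilateral arrays, whereas Psmb10, Psme1, Psmb5 and Psmb6 are high on the WT ipsilateral array.

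The induced genes were set against the catalytic genes they replace, as differences between sides and not as levels. Psmb5, which carries the chymotrypsin-like activity, read 11.17 and 11.24 in KO ipsilateral and contralateral cortex, and 11.44 and 11.23 in the WT counterparts. The difference between sides of Psmb8 exceeded that of Psmb5 by 1.06 in KO and by 0.70 in WT. Psmb6, which carries the caspase-like activity, read 10.80 and 10.87 in KO ipsilateral and contralateral cortex, and 11.21 and 10.87 in the WT counterparts. Psmb9 exceeded Psmb6 by 0.25 in KO and stood 0.19 below it in WT (-0.19), so the sign of this pair differed between genotypes. The change lay in Psmb6, at -0.07 in KO and 0.34 in WT between sides, while Psmb9 was at 0.18 and 0.15. Psmb7, which carries the trypsin-like activity, read 9.10 and 8.97 in KO ipsilateral and contralateral cortex, and 9.29 and 9.22 in the WT counterparts. Psmb10 minus Psmb7 was -0.13 in KO and 0.21 in WT, so the sign of this pair differed too. Of the 3 pairs, only Psmb8 and Psmb5 parted by more than 1.5-fold, and they did so in both genotypes.

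The alpha ring, which gates the core, stood apart on 1 array. In WT cortex all 7 genes were higher on the ipsilateral side, against 5973 of 13291 genes. Their median difference was 0.30, and 5 of them passed 1.2-fold, against 12.3% of all genes. In KO cortex the median was -0.02 and the 7 differences lay between -0.03 and 0.07. Psma3 read 11.92 on both sides of the KO cortex, and 12.34 and 11.91 in WT ipsilateral and contralateral cortex. Psma2 read 11.77 and 11.80 in KO ipsilateral and contralateral cortex, and 12.15 and 11.73 in the WT counterparts. These were the largest core differences between sides in WT, 0.43 for Psma3 (1.35-fold) and 0.42 for Psma2 (1.34-fold). The value of Psma3 rests on 1 probe set, since its other one, at a low level, gave -0.28 and the mean of both 0.075. Psma5, Psma6 and Psma7 were 0.27, 0.30 and 0.31 higher on the WT ipsilateral side, and Psma1 and Psma4, at 0.21 and 0.17, were under the 1.2-fold rule.

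The constitutive beta ring had the same shape. All 7 genes were higher on the WT ipsilateral side, against 5973 of 13291 genes, with a median of 0.28. In KO the median was -0.07 and 5 of 7 were below 0, against 7259 of 13264 genes. Psmb3, a structural subunit, read 11.38 and 11.50 in KO ipsilateral and contralateral cortex, and 11.72 and 11.37 in the WT counterparts. It had the largest gap between the genotypes in the difference between sides, -0.47. Psmb2 and Psmb4, structural subunits too, were 0.31 and 0.28 higher on the WT ipsilateral side, and Psmb1 was 0.25 higher. Psmb7 was the exception among the 14 core genes, with a difference between sides of 0.13 in KO and 0.07 in WT.

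Over the 42 genes, 14 were at least 1.2-fold higher in WT ipsilateral than in WT contralateral cortex, against 12.3% of all genes, and 0 were as much lower, against 9.12% of all genes. These 14 were 5 alpha genes, 4 beta genes, Psme1, Psmb8, Psmb10, the ATPase gene Psmc6 and the non-ATPase gene Psmd7. In KO cortex the same comparison held 1 gene higher (Psmb8), against 5.66% of all genes, and 0 lower, against 4.4%. The median difference of the members was 0.18 in WT, where 36 of 42 were above 0, and 0.00 in KO, where 19 of 42 were. Over all genes above background the median was -0.02 in both, with 5973 of 13291 above 0 in WT and 5528 of 13264 in KO.

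**Figure D3:**
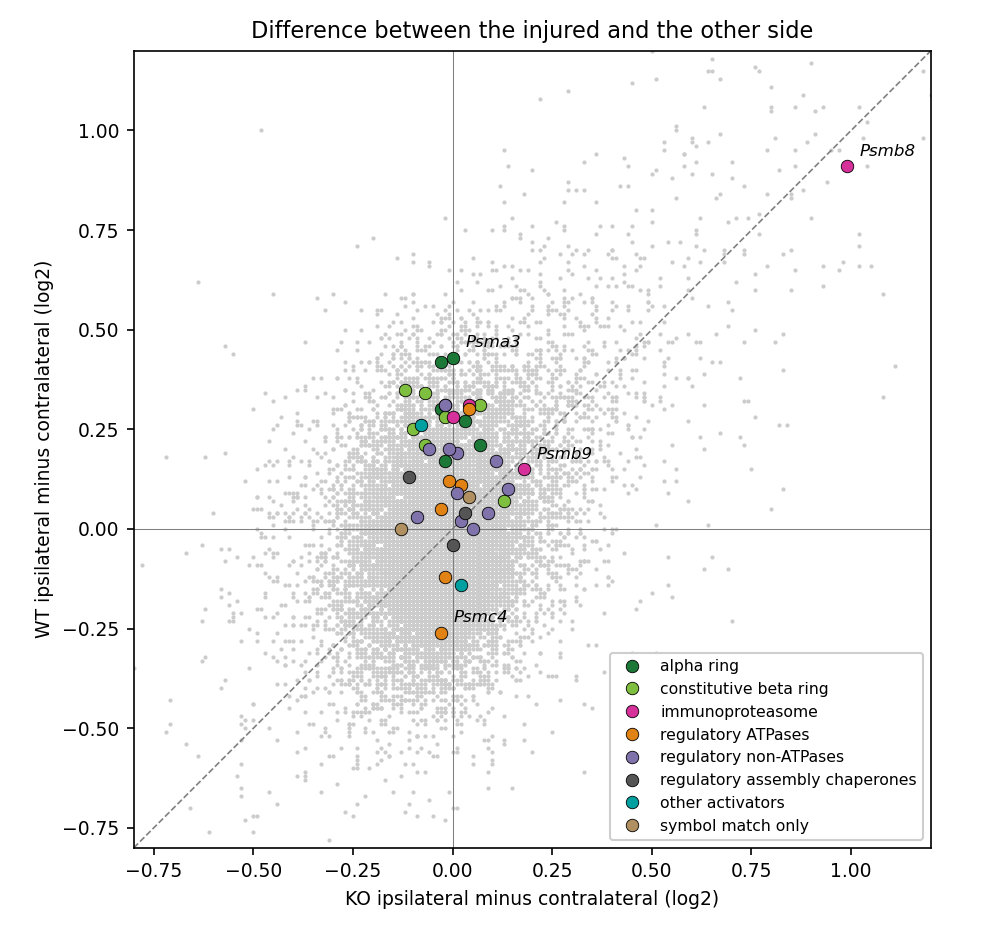
Ipsilateral minus contralateral log2 difference in KO (x axis) and in WT (y axis), for all detected genes (grey) and the 42 proteasome genes (coloured by role), with the dashed line marking equal differences. Genes outside the range drawn are not shown. Most proteasome genes lie near 0 on the KO axis and above 0 on the WT axis, and Psmb8 lies close to the line at 0.99 in KO and 0.91 in WT.

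The direct comparison of the injured sides shares the WT ipsilateral array with the WT difference above, so both comparisons read the same value of each gene. In KO ipsilateral against WT ipsilateral cortex, 13 of the 42 genes were at least 1.2-fold lower, against 10.9% of all genes, and 0 were as much higher, against 4.71%. The 13 were Psma2, Psma3, Psma5, Psma6, Psma7, Psmb1 to Psmb6, Psme1 and Psmd10. None passed 1.5-fold, which 0.668% of 13328 genes did. The lowest were Psma3 at -0.42, Psmb6 at -0.41 and Psma2 at -0.38, which is 1.34-fold, 1.33-fold and 1.3-fold lower in KO. All 14 core genes were below 0, as were 6778 of 13328 genes. The core median was -0.32, against a median of -0.21 over the members and -0.01 over all genes.

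On the contralateral side the genotypes were close. The median of the core genes was 0.01 and that of all members 0.00, KO minus WT, and none of the 42 passed 1.5-fold, which 0.387% of 13175 genes did. At 1.2-fold, 1 member was higher in KO, against 3.91% of all genes, and 1 was lower, against 3.81%. The higher one was Psmd7, a non-ATPase subunit of the lid, with 10.13 in KO and 9.79 in WT contralateral cortex. The lower one was Psmc5, a base ATPase, with 11.09 in KO and 11.36 in WT contralateral cortex, and it no longer passed under median centring or cyclic loess. Psmd7 has another probe set above background, which differed by 0.02, so its difference rests on 1 probe set. Psmb3 and Psmd11 at 0.13 and 0.12, and Psmb7 and Psmb8 at -0.25 and -0.21, were the next in size in each direction.

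The difference between sides in KO minus that in WT puts both genotypes in 1 value per gene. It was at least 1.2-fold lower for 13 of the 42 members, against 13.4% of all genes, and higher for 0, against 8.44%. None passed 1.5-fold, which 1.89% of 13414 genes did. The 13 were Psma2, Psma3, Psma6, Psma7, Psmb1, Psmb3, Psmb4, Psmb5, Psmb6, Psme1, Psmb10, Psmd7 and Psme3. For Psma3, Psmb1 and Psme3 another probe set above background, at a lower level, gave 0.21, 0.19 and 0.22. Psmb1 had 1 more at a low level, which gave -0.58. The other probe set of Psmb4, at a like level, gave -0.02 where the one used gave -0.30. The other probe sets above background of Psma6, Psma7, Psmb3 and Psmd7 gave -0.17 to -0.43. The core median was -0.315, and the 19S median was -0.08. Psmb8, at 0.08, stood apart from the core genes in this value. When KO ipsilateral cortex was set against the mean of the other 3 arrays, the only member past 1.2-fold was Psmb8, which was 0.55 higher. The background shares were 3.65% higher and 4.32% lower at 1.2-fold, and 0.738% at 1.5-fold, which no member reached.

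The separation of the WT ipsilateral array was also described against the range of the other 3. This measure was not planned and was taken for that array alone. It reads the same values as the comparisons above, so it is no further support for them. The share over all genes beside it was not matched for level. For 24 of the 42 members the WT ipsilateral value exceeded the highest other value by more than the range of the other 3 values, which 11.2% of all genes did. In the core this held for 13 of 14 genes, all but Psmb7. The range of the other 3 arrays had a median of 0.07 over the core genes, against 0.15 over all genes. In the 19S particle it held for 7 of 17 genes: Psmc2, Psmc3, Psmc6, Psmd6, Psmd8, Psmd13 and Psmd14. The highest value lay on the WT ipsilateral array for 33 of the 42 members (78.6%) and for 29.6% of all genes. With 1 pool per group, a property of that pool or array and an effect of injury in WT mice cannot be told apart.

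With the probe sets used, the 19S regulatory genes differed less between sides in WT than the core genes. The median over the 17 genes was 0.01 in KO and 0.10 in WT, against 0.29 for the core in WT. Of the 17, 2 passed 1.2-fold higher in WT (Psmc6 and Psmd7), which is close to the share of 12.3% over all genes. The size of the contrast depends on the probe set rule. With the mean of all probe sets the WT medians were 0.14 for the 19S genes and 0.19 for the core. With the mean of probe sets above background they were 0.12 and 0.26. For Psmd7 the array that stood apart was WT contralateral, at 9.79, with the other 3 between 10.10 and 10.13. Among the ATPases, Psmc6 read 10.34 and 10.30 in KO ipsilateral and contralateral cortex, and 10.56 and 10.26 in the WT counterparts. Psmc4 ran the other way in WT, with 11.01 and 11.04 in KO ipsilateral and contralateral cortex, and 10.91 and 11.17 in the WT counterparts. Its other probe set, however, gave 0.19 and not -0.26 for the WT difference, so the direction of Psmc4 depends on the probe set. Psmc5 was 0.12 lower on the WT ipsilateral side (-0.12), and Psmc1, Psmc2 and Psmc3 were 0.05, 0.11 and 0.12 higher.

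Among the non-ATPase genes, Psmd7 was 0.31 higher on the WT ipsilateral side, which its other probe set put at 0.28. Psmd13, a lid subunit, and Psmd14, which encodes the enzyme that cuts ubiquitin from the substrate, were 0.20 higher each. Psmd8 and Psmd1, subunits of the lid and the base, were 0.19 and 0.17 higher. Psmd11, a lid subunit, was the exception in the comparison of the injured sides, with 11.37 and 11.23 in KO ipsilateral and contralateral cortex, and 11.21 and 11.11 in the WT counterparts. It was 0.16 higher in KO ipsilateral than in WT ipsilateral cortex, and Psmd3, also of the lid, was 0.13 higher. The ubiquitin receptor gene Psmd4 was 0.24 lower there (-0.24). Psmd2, the large scaffold of the base, and Psmd6 and Psmd12, lid subunits, differed by at most 0.12 in all 4 comparisons with the probe sets used. The other probe set of Psmd6, at a like level, gave 0.22 for the WT difference and -0.18 in the comparison of the injured sides.

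The chaperones and the other activators were mixed. The chaperones of the base, Psmd5, Psmd9 and Psmd10, had WT differences between sides of 0.04, -0.04 and 0.13. Psmd10, also known as gankyrin, was the only member besides core genes and Psme1 that was at least 1.2-fold lower in KO ipsilateral than in WT ipsilateral cortex, at -0.29. Psme3, the nuclear activator PA28 gamma, read 8.38 and 8.46 in KO ipsilateral and contralateral cortex, and 8.62 and 8.36 in the WT counterparts, so it was 0.26 higher on the WT ipsilateral side, just under 1.2-fold. Its other probe set above background gave -0.03 in WT and 0.19 in KO between sides, so the direction of Psme3 depends on the probe set. Psme4, the activator PA200, read 9.20 and 9.18 in KO ipsilateral and contralateral cortex, and 9.03 and 9.17 in the WT counterparts, so its WT ipsilateral value was the lowest of the 4. In the comparison of the injured sides it was at 0.17, the highest of the members. Its direction depends on the probe set, since 1 of the 5 above background gave -0.11 there and 0.03 for the WT difference. The others gave 0.17 to 0.38 there and -0.14 to -0.76 for the WT difference, some of them at values near background.

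The members that complete the count were matched by letters or were not above background. Psmc3ip encodes a meiotic recombination factor and Psme3ip1 a protein that binds Psme3, and neither is a subunit. Their differences between sides were 0.04 and -0.13 in KO and 0.08 and 0.00 in WT. Psma8, the alpha subunit of testis, read between 3.47 and 3.67, and Psmb11, the beta subunit of the thymic cortex, between 3.35 and 3.52, on the 4 arrays. Neither was above background, so they have no measured difference.

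The probe sets of a gene did not always run together. Of the 20 members with more than 1 probe set above background, 10 had probe sets of 1 sign in the WT difference between sides and 14 in the comparison of the injured sides. Among the other core probe sets with log2 values of 10.0 or more, the WT difference was 0.36 for Psma5, 0.35 for Psma6, 0.37 for Psma7, 0.27 for Psmb3 and 0.02 for Psmb4. Those between background and a log2 value of 7 gave both signs: 0.24 for Psma6, -0.28 for Psma3, -0.22 for Psma1, and 0.58 and -0.18 for Psmb1. The differences of probe sets of the same member gene had an SD of 0.227 in WT and 0.079 in KO between sides, and 0.194 in the comparison of the injured sides. The core differences in WT, from 0.07 to 0.43, are thus of the order of the scatter between probe sets, taken gene by gene. With the mean of all probe sets the core median was 0.19 in WT and -0.25 in the comparison of the injured sides.

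Genes of the pathway outside the family were read from lists. Of the genes for core assembly, free subunits and inhibitors, 8 of 10 were measured, and their medians were -0.03 in KO and 0.16 in WT between sides, with 3 of 8 past 1.2-fold higher in WT, against 12.3% of all genes. Psmg4, a chaperone that builds the alpha ring, read 7.90 and 7.99 in KO ipsilateral and contralateral cortex, and 8.41 and 8.0 in the WT counterparts. Psmg3, its partner, was 0.29 higher and Psmg1, another ring chaperone, 0.28 higher on the WT ipsilateral side. Pomp, which helps the beta ring mature, was 0.15 higher. Psmf1, an inhibitor, and Ecpas, a factor that takes the proteasome apart, differed by at most 0.05 between sides.

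Of the transcription regulators known for these genes, 7 of 7 were above background, with medians between sides of -0.08 in KO and 0.00 in WT. Stat3, a mediator of cytokine signals, read 9.30 and 8.59 in KO ipsilateral and contralateral cortex, and 9.24 and 8.46 in the WT counterparts, so it was higher on the injured side of both genotypes. Nfe2l1, which drives the recovery of proteasome genes after inhibition, was -0.13 in KO and -0.15 in WT between sides. Nfe2l2, the antioxidant regulator, was 0.31 in KO and 0.32 in WT. Nfya, a subunit of the factor that binds CCAAT boxes, was 0.38 in KO and 0.00 in WT between sides, and -0.49 in KO minus WT contralateral cortex.

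The interferon regulators and the class I partners held genes of both directions. Of the 12 interferon regulators measured, 10 were above background, with medians between sides of 0.16 in KO and 0.10 in WT. Irf9, part of the interferon response complex, was 0.59 higher in KO and 0.38 in WT, and Irf8, a factor of microglia and other myeloid cells, was 0.49 higher in KO and 0.59 in WT. Irf1, the classic inducer of Psmb8 and Psmb9, was 0.21 higher in KO and 0.40 in WT. Ifngr2, a chain of the interferon gamma receptor, ran the other way, with -0.10 in KO and -0.36 in WT. Nlrc5, an activator of class I genes, was not above background. All 11 class I partners measured were above 0 in KO (median 0.20) and 8 of 11 in WT (median 0.08). Over all genes 5528 of 13264 were above 0 in KO and 5973 of 13291 in WT. Between genotypes, KO minus WT, the class I median was 0.00 in ipsilateral cortex, with 5 genes above and 5 below 0. In contralateral cortex it was -0.08, with all 11 below 0, against 7001 of 13175 genes. The larger KO difference between sides thus went with lower KO contralateral values and not with higher KO ipsilateral ones. Erap1, which trims peptides, was 0.63 in KO and -0.10 in WT. It read 5.22 and 4.59 in KO ipsilateral and contralateral cortex, and 4.88 and 4.98 in the WT counterparts. The KO contralateral value of Erap1 was not above background and both WT values were just above it, so its KO difference rests on low values. Tap1, which carries peptides into the endoplasmic reticulum and neighbours Psmb9, read 6.37 and 5.92 in KO ipsilateral and contralateral cortex, and 6.40 and 5.96 in the WT counterparts.

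**Figure D4:**
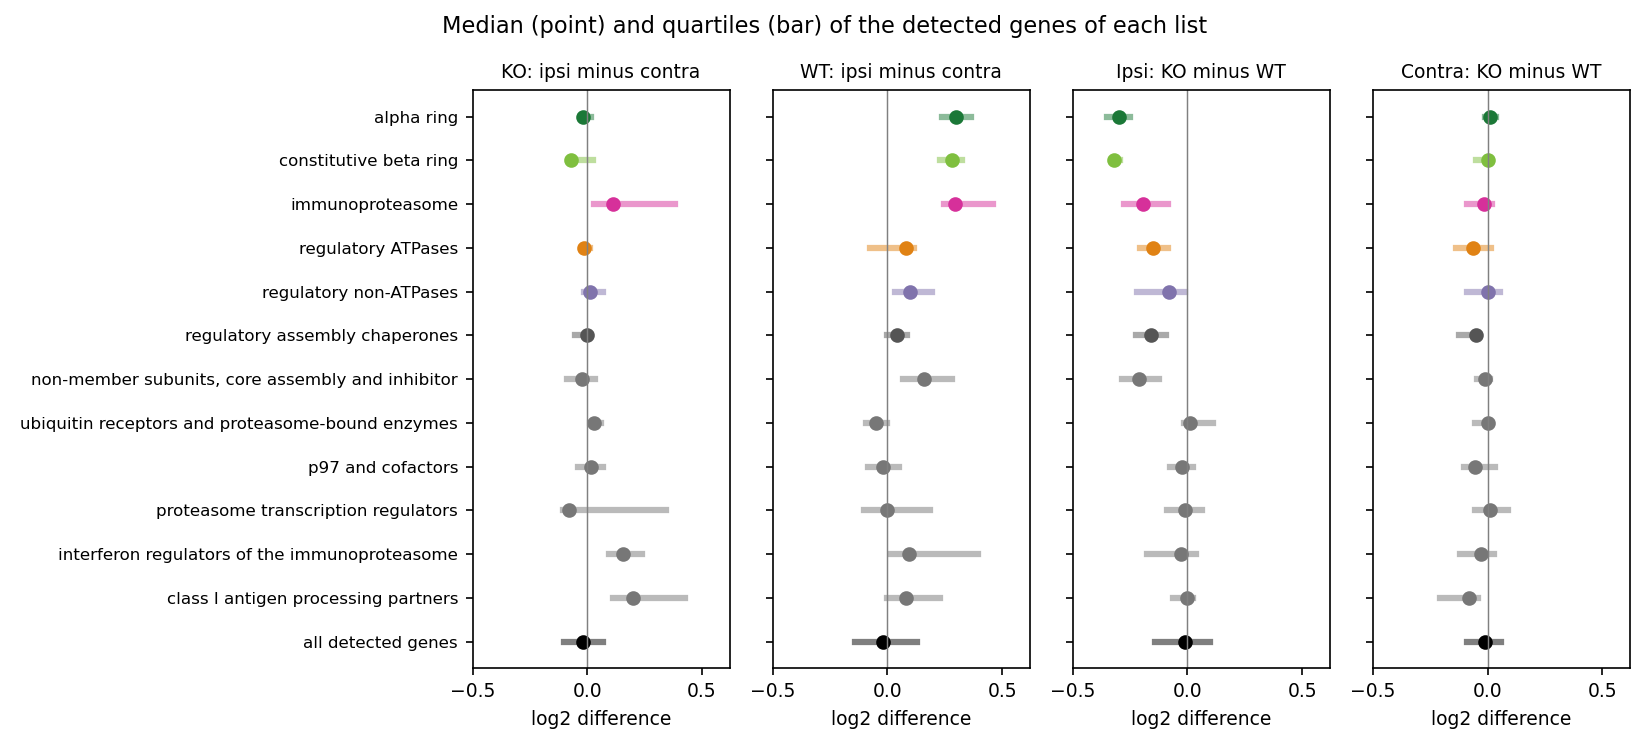
Median (point) and quartiles (bar) of the log2 difference (x axis) over the detected genes of each list (y axis), for the 4 comparisons. The alpha and beta rings are at 0.30 and 0.28 between sides in WT and at -0.30 and -0.32 in KO against WT ipsilateral cortex, while they lie at -0.02 and -0.07 between sides in KO.

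Markers of other cells moved with side, and their part in the member values was not tested. The 15 microglial markers measured, all above background, had mean log2 levels of 8.74 and 8.53 in KO ipsilateral and contralateral cortex, and 8.84 and 8.61 in the WT counterparts. Of 11 macrophage markers 8 were above background, not Ccr2, Plac8 or Chil3, and the list means were 6.11 and 5.55 in KO ipsilateral and contralateral cortex, and 6.01 and 5.46 in the WT counterparts. Of 12 neutrophil markers 7 were above background, not Camp, Cxcr2, Mmp8, Elane or Mpo, and the means were 5.32 and 4.67 in KO ipsilateral and contralateral cortex, and 5.15 and 4.47 in the WT counterparts. These means, which include genes not above background, were higher on the injured side of both genotypes, but not every marker was. Of the 15 microglial markers, 12 in KO and 11 in WT were above 0 between sides, against 5528 of 13264 and 5973 of 13291 genes. P2ry12, a marker of resting microglia, was at -0.39 in KO and -0.38 in WT. The 10 choroid plexus markers had means of 6.05 and 5.16 in KO ipsilateral and contralateral cortex, and 6.38 and 5.15 in the WT counterparts. The 12 neuronal markers had a mean of 11.99 on both sides of the KO cortex, and means of 11.84 and 12.03 in WT ipsilateral and contralateral cortex. The pool with the highest core values thus had the lowest neuronal mean. That pool also had the highest microglial, choroid plexus, astrocyte (11.17) and endothelial (7.55) means. The macrophage and neutrophil means were highest in KO ipsilateral cortex, and the oligodendrocyte mean was highest in WT contralateral cortex (10.85).

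Differences were also read by gene length and level. In WT cortex the median difference between sides over all genes fell with the span of the gene, with 0.07 in the shortest quintile and -0.10 in the longest, and in KO it lay between -0.03 and -0.01 in all quintiles. Of the 42 members, 26 were in the shortest 2 quintiles. Within the shortest quintile the median in WT was 0.235 over 14 members and 0.07 over all genes. Within the highest quintile of level it was 0.21 over 27 members and -0.05 over all genes. Relative to genes of the same quintile of span, 8 and not 13 members were at least 1.2-fold lower in KO ipsilateral than in WT ipsilateral cortex, and the core median was -0.27.

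**Figure D5:**
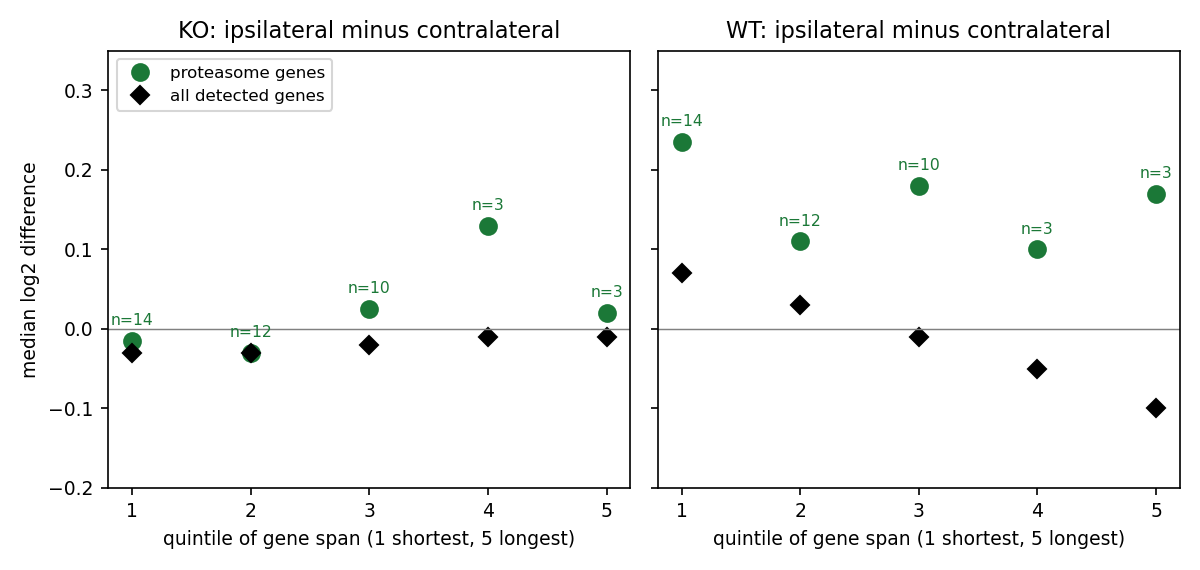
Median ipsilateral minus contralateral log2 difference (y axis) by quintile of gene span (x axis), in KO (left) and WT (right), for the proteasome genes (circles, with their number) and all detected genes (diamonds). In WT the medians of all genes go from 0.07 to -0.10 along the quintiles, and the proteasome medians lie above them in each quintile. In KO both lie near 0 where the members are many.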

How the data were processed

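RNA of the ipsilateral and contralateral whole cortex of KO and WT mice was hybridized by the authors to 1 Affymetrix mouse genome expression array per group. The authors deposited log2 values per probe set, with 2 decimals. RMA is named in the submitters' processing notes and GenePattern in the study's methods. Their versions were not given in the sources used here. RMA includes a quantile normalization between arrays, which removes a difference shared by all genes. The base of the log was taken as 2, as RMA gives. The table has no detection calls, and no column was left out.

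Gene names came from the platform annotation: 34958 probe sets name 1 gene, 932 several and 9211 none, and 34754 matched RefSeq (GRCm38.p6), which also gave gene spans and promoters. Per gene, the probe set with the highest mean over the 4 arrays was used, and differences were computed between arrays in Python 3.11.15 with numpy 2.4.6 and pandas 2.3.3. With 1 array per group nothing was tested, and the fixed sizes of 1.5-fold and 1.2-fold stand in for a test. The number of arrays limits the precision. Scatter was read from the receptor probe sets and from probe sets of the same gene. The calling step was tested on simulated data.

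Named were all immunoproteasome genes and their counterparts, the 3 highest and lowest members of each comparison, all members past 1.5-fold, not above background or matched by letters only, and up to 4 genes per other list. Further members were named after their values were seen. The members and lists were chosen with earlier results of these data known. Alternatives were other rules for the probe set, median centring, cyclic loess (limma 3.58.1 in R 4.3.3), a background at the 99th percentile and a 2-fold rule.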

Additional observations from a re-analysis of the deposited data

How the results depend on the processing

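No paired analysis was possible because each group holds 1 array, so no array can be left out and no spread of pairs exists, although both pools of a genotype came from the same mice. Of 220 counts 20 moved, of 220 medians 21 moved by over 0.05, and of 990 single gene values 17 moved by more than the SD of receptor probe sets and 3 more, past 1.2-fold before, changed sign. These 3 were of Psma3, when only probe sets with no _s_, _x_ or _a_ in their names were used, which leaves Psma3 with a probe set of low level: -0.28 in WT between sides, 0.23 in KO against WT ipsilateral cortex and 0.21 in the difference between sides in KO minus that in WT (difference of differences below). With the same probe sets, smaller values changed sign too: Psmc4 to 0.19 in WT, -0.20 in KO against WT ipsilateral cortex and -0.23 in the difference of differences, Psme4 to -0.11 in KO against WT ipsilateral cortex, and Psmb3 to -0.09 on the contralateral side, as Psmb8 did there, to 0.02, with the mean of its probe sets. Taking the mean of all probe sets of a gene gave 0 members past 1.5-fold higher in KO between sides and 9 past 1.2-fold higher in WT (1 lower), a core median of 0.19 in WT, -0.25 in KO against WT ipsilateral cortex and -0.215 in the difference of differences (immunoproteasome -0.19), 0 members higher at 1.2-fold on the contralateral side and 1 higher in the difference of differences. Using only probe sets with no _s_, _x_ or _a_ in their names gave 2 past 1.5-fold higher and 1 past 1.2-fold lower in WT, and 1 past 1.5-fold lower in KO against WT ipsilateral cortex and in the difference of differences. Median centring gave WT medians of 0.24 (members), 0.35 (core) and 0.355 (immunoproteasome), contralateral medians of 0.05 (members) and 0.035 (immunoproteasome), and 0 members lower at 1.2-fold on that side, as did cyclic loess. A background at the 99th percentile, which Psmb9 did not pass, gave immunoproteasome medians of 0.04 in KO between sides, -0.26 in KO against WT ipsilateral cortex and -0.27 in the difference of differences. At 2-fold, 0 members passed in KO and 0 in WT. Added after seeing the data, the mean of probe sets above background gave 1 member past 1.2-fold lower in WT, a core median of -0.27 in KO against WT ipsilateral cortex and -0.26 in the difference of differences, 0 higher on the contralateral side and 1 higher in the difference of differences. Relative to genes of the same quintile of span, also added after seeing the data, 1 member was lower in WT, 8 were lower in KO against WT ipsilateral cortex, and in the difference of differences 1 was higher and 8 lower, with a core median of -0.24 and immunoproteasome medians of 0.225 in WT, -0.115 in KO against WT ipsilateral cortex and -0.03 in the difference of differences. The cause of these moves was not tested.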

Other observations

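The genes that deliver ubiquitin-tagged proteins to the proteasome did not, as a list, share the elevation of the core in WT ipsilateral cortex. Of the ubiquitin receptors and proteasome-bound enzymes, 8 of 10 were measured, and their median difference between sides was 0.03 in KO and -0.05 in WT. In either genotype 0 of 8 passed 1.2-fold. Over all genes 5.66% were higher and 4.4% lower in KO, and 12.3% higher and 9.12% lower in WT. Ubqln2, a shuttle that brings tagged proteins to the proteasome, read 12.57 and 12.45 in KO ipsilateral and contralateral cortex, and 12.34 and 12.43 in the WT counterparts. Usp14, an enzyme that trims ubiquitin at the 19S particle, read 10.36 and 10.34 in KO ipsilateral and contralateral cortex, and 10.21 and 10.32 in the WT counterparts. For both genes the WT ipsilateral value was the lowest of the 4, as it was for 31.6% of all genes, where that of all 14 core genes was the highest. Uchl5 and Txnl1 were lowest there too, and Ubqln1 and Ubqln4 were not. Ube3c went the other way, with its highest value there (9.42), and Rad23b had its highest value of 9.35 on both ipsilateral arrays.

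The segregase p97 and its cofactors, which pull proteins out of complexes and membranes, had medians of 0.02 in KO and -0.02 in WT between sides over 8 genes. Vcp, which encodes p97, read 12.27 and 12.14 in KO ipsilateral and contralateral cortex, and 12.13 and 12.23 in the WT counterparts. Ubxn4, a cofactor at the endoplasmic reticulum, was the only one of the 8 past 1.2-fold, with 10.80 in WT ipsilateral and 10.50 in WT contralateral cortex. This is close to the share of 12.3% of all genes that were higher in WT. Of the ubiquitin genes and activating enzymes, Uba6 alone was measured by a probe set of its own, and it differed by -0.05 in KO and 0.09 in WT between sides.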
